A study of Mus musculus with 6 samples.

Results

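Mapk12 and Mapk11 are neighbouring genes on mouse chromosome 15 that encode p38 mitogen-activated protein kinases, p38 gamma and p38 beta. The p38 kinases relay stress and cytokine signals. They are switched on by upstream kinases that phosphorylate their activation loop, and they act on transcription factors and on further kinases. In helper T cells the p38 pathway is known for its part in the output of interferon gamma. Ezh2 is the enzyme of the Polycomb complex that methylates histone H3, and the mark it leaves lies over silent genes, often at CpG-rich promoters.

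Both genes lie on the minus strand, in a window of 35 kb at chr15:88955001-88990000 (mm9). Ezh2 was followed there in 35 bins of 1 kb, out of 2638957 bins on chromosomes 1 to 19 and X. A stretch of 6 kb in this window, chr15:88966001-88972000, was compared with the other 29 kb. That stretch was selected on its Ezh2 values: the pooled Ezh2 libraries were enriched there over the pooled inputs, and Th1 held more Ezh2 than Th2. Its Ezh2 values, and the contrast of Th1 with Th2 in it, are therefore a description without a test. The window was drawn around it, so the values of the rest are a description as well.

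The libraries came from naive CD4 T cells (CD44low CD62Lhigh) of the spleen of C57BL/6 mice, cultured for 5 days. For the first 2 days all cells were stimulated with plate-bound antibody to TCRβ (10 µg/ml) and antibody to CD28 (1 µg/ml), and for 3 further days they were kept without it, with IL-2 (15 ng/ml) throughout. Th1 cells also received IL-12 (10 ng/ml) and an antibody to IL-4, and Th2 cells received IL-4 (100 ng/ml) and an antibody to IFN-γ. Each cell type gave an Ezh2 pull-down with a polyclonal antibody, a pull-down with rabbit IgG as control antibody, and input DNA. There was 1 library in each of these 6 groups and no replicate, so intervals below cover counting error alone and comparisons are between libraries, not between cell types. The labels name no mouse or culture as the source of a single library, and expression of T cell markers was not measured in these libraries.

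A position was a distinct sequenced interval, counted once however many reads shared it. Over chromosomes 1 to 19 and X the Th1 Ezh2 library held 10809666 positions and the Th2 Ezh2 library 14963599. The inputs held 15578675 for Th1 and 12862628 for Th2, and the Th1 control antibody library 9326717. The Th2 control antibody library was not used here, since its file as used held no line on chromosome 15. Levels are given as positions per kb per 10000000 positions of the library, and ratios are scaled by the same totals. The Ezh2 file names carry different run labels for Th1 and Th2, so cell type and sequencing run cannot be told apart.

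No mm9 annotation was used here, so the starts of both genes were not placed inside the window, and which part of which gene the 6 kb covers is not given. In the order of protein-coding genes of the RefSeq table for GRCm38.p6, Hdac10 preceded Mapk12 and Plxnb2 followed Mapk11. The promoter sequences are shown because CpG-rich promoters are the usual seat of Polycomb complexes. They are the 250 bases before each gene's start from RefSeq (GRCm38.p6, a different build whose coordinates do not compare with the mm9 ones), both on the minus strand, at chr15:89140704-89140953 for Mapk12 and chr15:89149607-89149856 for Mapk11. They read 5′ to 3′, with CpG dinucleotides in capitals.
Mapk12: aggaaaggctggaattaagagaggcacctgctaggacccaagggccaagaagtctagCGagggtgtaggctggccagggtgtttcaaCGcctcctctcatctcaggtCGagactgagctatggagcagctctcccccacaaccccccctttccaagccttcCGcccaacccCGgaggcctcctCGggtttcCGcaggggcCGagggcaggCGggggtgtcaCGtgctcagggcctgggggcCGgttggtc
Mapk11: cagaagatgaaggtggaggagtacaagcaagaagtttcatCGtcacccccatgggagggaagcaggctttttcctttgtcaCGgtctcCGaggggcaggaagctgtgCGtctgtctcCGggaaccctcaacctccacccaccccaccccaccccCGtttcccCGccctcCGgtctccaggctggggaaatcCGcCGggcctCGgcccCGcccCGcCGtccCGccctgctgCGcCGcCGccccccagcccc

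The Mapk12 promoter held 11 CpG at 64.4% GC and the Mapk11 promoter 18 at 68.0% GC, against a median of 6 CpG and 52.4% GC over 32841 promoter entries of the same length. As many CpG as at Mapk12 were found in 35.6% of those entries, and as many as at Mapk11 in 21.7%. The ratio of observed to expected CpG was 0.425 at Mapk12 and 0.652 at Mapk11, with a median of 0.374 over all entries. Of the other p38 genes, Mapk13 (p38 delta) held 25 CpG, and Mapk14 (p38 alpha) held 30 and 14 at its 2 listed starts. In both members most CpG lay in the 125 bases nearest to the gene, 8 of 11 at Mapk12 and 13 of 18 at Mapk11.

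Short motifs were searched on both strands as letters only. AGGTGT, a core bound by T-box factors such as the Th1 factor T-bet, was in neither promoter and is in 11.8% of all entries. GATAA, a core bound by GATA factors such as the Th2 factor GATA3, was in neither and is in 22.6% of all entries. The E-box CACGTG was found 1 time upstream of Mapk12, starting 31 bases before the gene, and not upstream of Mapk11. It is in 6.02% of all entries.

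In Th1, the most Ezh2 of the window lay in the higher-coordinate part of the 6 kb. A separate high bin lay just before the stretch, and it also had the most Th1 input of the window, 19 positions. Over input, Th1 Ezh2 stood at 2.18-fold in that bin and at 4.90-fold in the bin just after the stretch. In Th2 the level in the 6 kb was lower than in Th1, and its bins spanned a narrower range of levels. In the 6 kb, the Th1 Ezh2 library held 188 positions, a level of 28.99 (95% interval 24.99 to 33.4). The Th2 Ezh2 library held 102 positions, a level of 11.4 (9.26 to 13.8). The inputs held 52 positions in Th1, a level of 5.56 (4.15 to 7.30), and 44 in Th2, a level of 5.70 (4.14 to 7.65). The Th1 control antibody held 36, a level of 6.43 (4.51 to 8.91). Thus the Th1 Ezh2 level was above all others, the Th2 Ezh2 level came next, and the intervals of the inputs and of the control antibody overlapped one another.

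Along the 6 bins of this stretch, from the lower to the higher coordinate, Th1 Ezh2 held 18, 23, 29, 34, 42 and 42 positions. Th2 Ezh2 held 21, 11, 21, 13, 19 and 17. The Th1 counts climbed toward the higher-coordinate end, whereas those of Th2 had no such climb. The Th1 input held between 6 and 12 positions per bin, the Th2 input between 4 and 11 and the Th1 control antibody between 4 and 8, and all of them stayed below the lowest Th1 Ezh2 bin. The bin with the most Th1 input, 12 positions, was also 1 of the 2 with the most Th1 Ezh2.

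**Figure D1:**
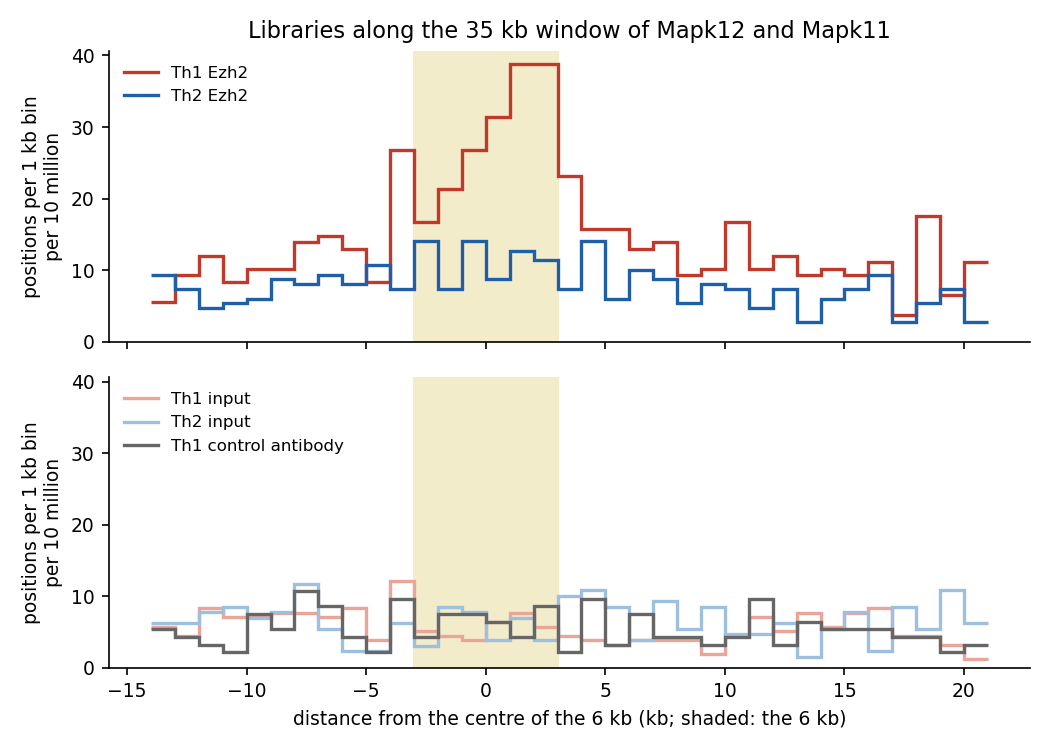
Positions per 1 kb bin per 10000000 positions of the library (y axes) against the distance in kb from the centre of the 6 kb (x axis), with 1 line per library and the 6 kb shaded. Th1 Ezh2 reaches 38.9 in its highest bins inside the shaded stretch, where Th2 Ezh2 stays at or below 14.03 and the inputs and the control antibody stay at or below 8.58.

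The ratio of Ezh2 positions was higher in the higher-coordinate part. In the first 3 kb, Th1 Ezh2 held 70 positions and Th2 Ezh2 held 53, which gave a ratio of 1.83 (1.26 to 2.66). In the last 3 kb the counts were 118 and 49, for a ratio of 3.33 (2.37 to 4.75). Over input the ratio of Th1 to Th2 was nearly the same in both parts, 2.64 (1.26 to 5.53) in the first and 2.47 (1.20 to 5.01) in the last. The inputs moved between the parts, from 21 Th1 and 25 Th2 positions in the first 3 kb to 31 and 19 in the last. The steps of 200 bp with the most Th1 Ezh2 positions, 13, lay at 88970401 to 88970600.

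Over the whole 6 kb, Ezh2 positions in Th1 were 2.55-fold those in Th2 (95% interval 1.99 to 3.28). The inputs had a ratio of 0.976 (0.641 to 1.49), and by a two-sided exact binomial test they did not differ beyond counting error (adjusted p = 0.919 over the 2 stretches tested). Both inputs were in the pool used to select the stretch, so this test is not free of the choice. The width of the interval also leaves room for a difference between the inputs. With the inputs entered, the ratio was 2.61 (1.59 to 4.28), so the wider interval came with nearly the same value. Among all 6 kb windows of chromosomes 1 to 19 and X with at least 100 Ezh2 positions over both libraries, Th1 was at least 2-fold higher in 0.455% (198 of 43556) and Th2 in 0.498% (217). In 7380 of them both Ezh2 libraries together were at least 2-fold over both inputs. Among these, Th1 was at least 2-fold higher in 0.122% (9 windows). Their median Th1 to Th2 ratio was 0.884, against 1.03 in all the windows, so under this scaling enriched windows leaned toward Th2. Because the Th1 to Th2 ratio had picked out the stretch, these shares place it among other windows and no more.

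**Figure D2:**
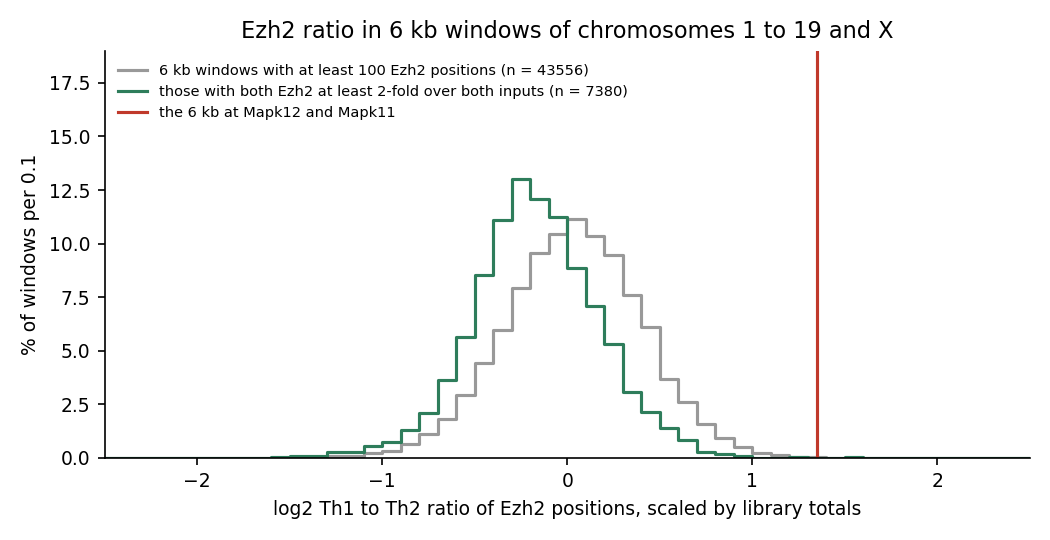
Share of 6 kb windows (y axis, % per step of 0.1) by the log2 ratio of Th1 to Th2 Ezh2 positions (x axis), for all windows with at least 100 Ezh2 positions and for those with both Ezh2 libraries at least 2-fold over both inputs. The vertical line marks the 6 kb at Mapk12 and Mapk11, a ratio of 2.55, while the medians of the distributions are 1.03 and 0.884.

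Ezh2 over input in the 6 kb was 5.21-fold in Th1 (3.81 to 7.23). In Th2 it was 1.99-fold (1.39 to 2.91). The control antibody of Th1 was 1.16-fold over the same Th1 input (0.734 to 1.80). By a two-sided exact binomial test this fold did not differ from 1 beyond counting error (adjusted p = 0.510 over the 2 stretches tested). The Th1 input was part of the pooled inputs used to select the stretch, so this test is not free of the choice. Measured against that control antibody in place of input, Ezh2 in Th1 was 4.51-fold (3.14 to 6.63).

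The rest of the window also held more Ezh2 in Th1. Its 29 bins had 379 Ezh2 positions in Th1, a level of 12.1 (10.9 to 13.4), and 310 in Th2, a level of 7.14 (6.37 to 7.98). The inputs had 256 in Th1, a level of 5.67 (4.99 to 6.40), and 247 in Th2, a level of 6.62 (5.82 to 7.50), and the control antibody had 141, a level of 5.21 (4.39 to 6.15). The Th1 Ezh2 interval overlapped none of the others, while that of Th2 Ezh2 overlapped the intervals of both inputs. The Th1 to Th2 ratio of Ezh2 was 1.69 (1.45 to 1.97), and 1.98 (1.56 to 2.51) with the inputs.

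Over input, the Th1 Ezh2 library stood at 2.13-fold in the rest (1.82 to 2.51). The Th2 Ezh2 library stood at 1.08-fold (0.910 to 1.28). In the same bins the fold of the control antibody was 0.920 (0.744 to 1.13, two-sided exact binomial test, adjusted p = 0.510). The inputs had a ratio of 0.856 between Th1 and Th2 (0.716 to 1.02, exact test, adjusted p = 0.162). The extra Ezh2 in Th1 was thus not limited to the 6 kb. Of 35 kb windows across the chromosomes, 0.34% (237 of 69733) were at least 1.5-fold higher in Th1 Ezh2, and the whole window of Mapk12 and Mapk11 had a ratio of 1.91 (1.68 to 2.17).

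Within each library, the 6 kb was denser than the rest by 2.40 times in Th1 Ezh2 (2.00 to 2.86) and by 1.59 times in Th2 Ezh2 (1.26 to 2.00). The same quotient was 0.982 in the Th1 input (0.714 to 1.33), 0.861 in the Th2 input (0.610 to 1.19) and 1.23 in the control antibody (0.831 to 1.79). Since pooled Ezh2 over pooled inputs had selected the stretch, a denser Ezh2 signal there without one in the inputs was set by the choice. The highest bins differed: Th1 Ezh2 held most, 42 positions, in the last 2 bins of the 6 kb, and Th2 Ezh2 held most, 21, in 2 bins of the 6 kb and in the bin at 88973001 to 88974000, outside it. The step from the rest to the 6 kb was 1.51 times larger in Th1 than in Th2 (1.12 to 2.03). The stretch had also been selected for more Ezh2 in Th1 than in Th2, so the choice favoured a larger step in Th1.

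The sides of the 6 kb differed in how far the inputs entered. On the lower-coordinate side, toward Hdac10 in the gene order, 11 kb held 143 Th1 and 127 Th2 Ezh2 positions, a ratio of 1.56 (1.22 to 2.00). With the inputs, at 124 and 92, the ratio was 1.40 (0.961 to 2.04) and its interval included 1. On the higher-coordinate side, toward Plxnb2, 18 kb held 236 and 183, a ratio of 1.79 (1.47 to 2.18). There the inputs held 132 Th1 and 155 Th2 positions, a ratio of 0.703 (0.553 to 0.893), and the Ezh2 ratio with the inputs was 2.54 (1.86 to 3.47). A lower Th1 input thus stood beside the input-corrected ratio on that side, and the ratio of Ezh2 positions alone, 1.79, did not use it.

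**Figure D3:**
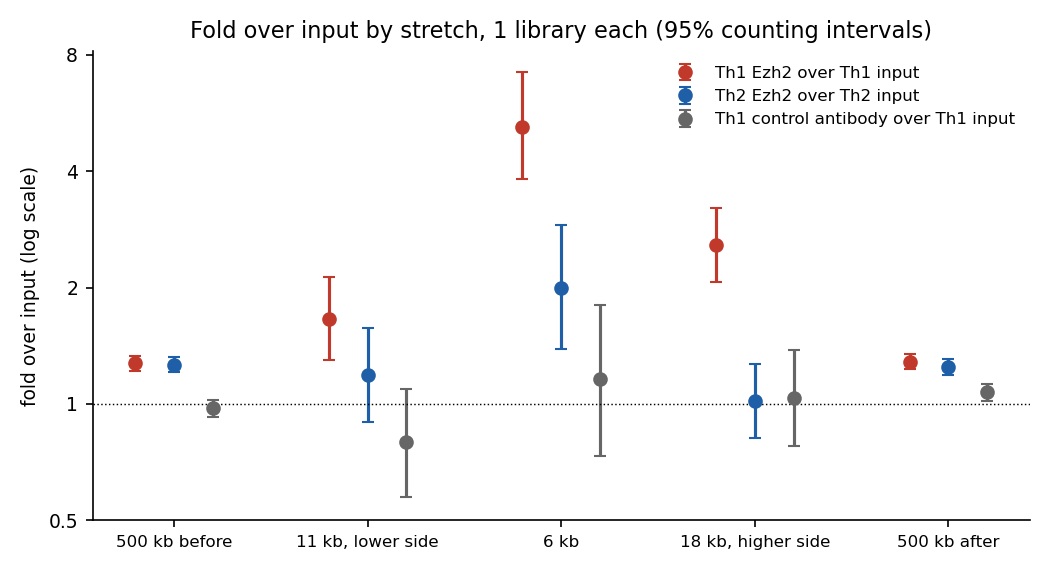
Fold over the input of the same cell type (y axis, log scale) in 5 stretches (x axis), with points for Th1 Ezh2, Th2 Ezh2 and the Th1 control antibody and bars for 95% counting intervals, 1 library each. Th1 Ezh2 stands at 1.66, 5.21 and 2.58 in the 3 stretches of the window and at 1.27 and 1.29 in the surrounding 500 kb on each side, where Th2 Ezh2 stands at 1.26 and 1.25.

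Bin by bin, 34 of the 35 bins had at least 10 Ezh2 positions over both libraries, and Th1 was higher in 31 of them, where 51.9% of all 1158969 such bins were higher in Th1. It was at least 2-fold higher in 13, with 12.7% of all bins past that fold. Of these 13, 4 lay in the 6 kb and 9 in the rest. The highest ratio of all, 4.15 (1.26 to 17.7), was in the last bin of the window, on 12 Th1 and 4 Th2 positions. A high bin with more positions lay just outside the 6 kb, at 88965001 to 88966000. Th1 held 29 positions there against 11 of Th2, a ratio of 3.65 (1.77 to 8.10). That bin also had the most Th1 input of the window, 19 positions against 8 in Th2, and Ezh2 over input was 2.18-fold in Th1 and 1.16-fold in Th2.

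Single bins were called enriched by a one-sided exact binomial test against the input of the same cell type, at a Benjamini-Hochberg adjusted p below 0.05 over all bins tested and a fold of at least 2. The rule had used these values for the 6 kb, so the calls there are a description. In Th1, 6 of 35 bins were called, with 0.992% of all tested bins called. In Th2, 0 of 34 tested bins were called, with 1.21% of all tested bins called, and the control antibody gave 0 of 29, with 0.00151% of all. The Th1 calls formed 1 unbroken run from 88967001 to 88973000, 5 bins of the 6 kb and the bin after it. Its folds lay between 4.52 and 6.54. In Th2 the highest fold of a bin was 4.11, on 21 Ezh2 and 4 input positions at 88966001 to 88967000, and was not called. With all deposited reads in place of positions, 12 bins were called in Th1 and 4 in Th2, and with both inputs summed 10 were called in Th1, so the extent of the called run depended on the counting.

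The edges of the 6 kb came from a call on the pooled Ezh2 libraries against the pooled inputs. Its first bin stood at 3.49-fold and its last at 4.53-fold. The bins just outside stood at 1.63-fold and 1.96-fold, and the next bins out at 2.96-fold and 2.07-fold, without passing the adjusted p. In Th1 alone, the bins just outside stood at 2.18-fold on the lower edge and 4.90-fold on the higher, and the latter was called.

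The ratio of Th1 to Th2 was then followed outward in blocks of 5 kb, 10 on each side. It was above 1 in 19 of the 20 blocks, where 54.5% of all 218106 windows of 5 kb with at least 50 Ezh2 positions were higher in Th1. The interval lay above 1 in 9 blocks, against 6% of those windows, and below 1 in 0. The blocks are neighbours and not independent. Next to the 6 kb the ratio was 1.77 (1.26 to 2.48) on the lower side and 1.77 (1.27 to 2.46) on the higher side. At 15 to 20 kb it was 1.16 (0.662 to 2.02) on the lower side, but 2.01 (1.35 to 3.03) on the higher. At 25 to 30 kb it was 1.90 (1.20 to 3.02) on the lower side, where the inputs had 1.74 (1.08 to 2.87), and 1.29 (0.881 to 1.89) on the higher. At 40 to 45 kb the sides went apart again, at 0.666 (0.396 to 1.09) and 1.76 (1.22 to 2.56). The inputs had an interval above 1 in 2 blocks and below 1 in 2. The lowest input ratio, 0.450 (0.279 to 0.715), was in the block right after the 6 kb, where Th1 held 30 input positions and Th2 held 55.

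**Figure D4:**
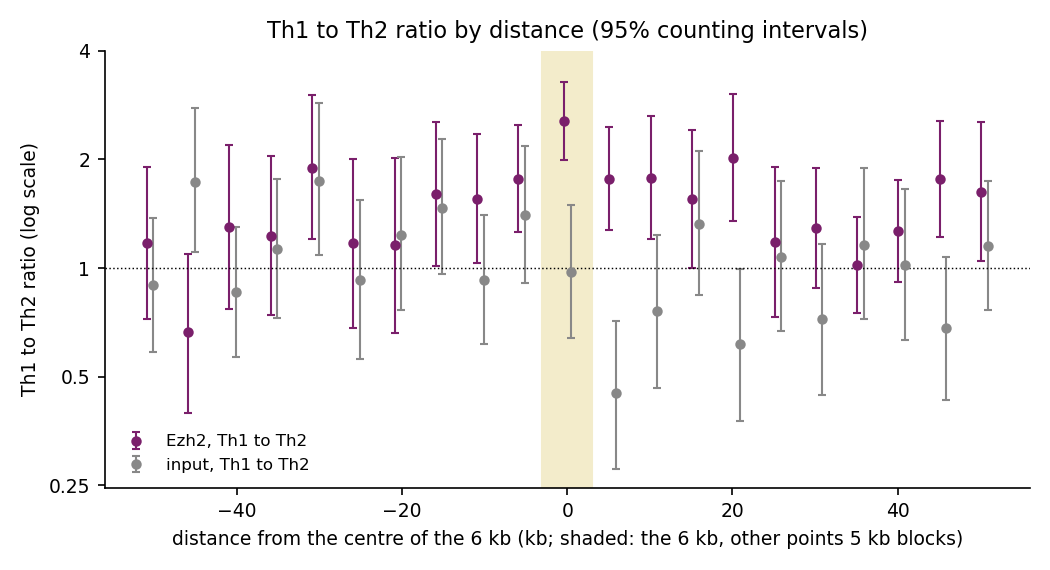
Ratio of Th1 to Th2 (y axis, log scale) for Ezh2 and for input against the distance in kb from the centre of the 6 kb (x axis), in 5 kb blocks outside and for the whole 6 kb inside the shading, with 95% counting intervals. Ezh2 is highest at 2.55 in the 6 kb and between 1.56 and 1.77 in the next 2 blocks on the lower side, while the input is at 0.976 in the 6 kb.

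Averaged over longer stretches outside the window, the difference was small. In the 500 kb before the window the Ezh2 ratio was 1.10 (1.06 to 1.15) and that of the inputs 1.10 (1.05 to 1.15), so with the inputs it was 1.01 (0.944 to 1.07). In the 500 kb after it the values were 1.08 (1.03 to 1.13) for Ezh2, 1.05 (0.998 to 1.10) for the inputs and 1.03 (0.967 to 1.10) with the inputs. The 100 kb before the window had an Ezh2 ratio of 1.04 (0.951 to 1.14), and 0.926 (0.805 to 1.06) with the inputs. In the 100 kb after it these were 1.20 (1.09 to 1.32) and 1.16 (1.01 to 1.34), so on that side Th1 remained slightly higher.

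The same pooled call gave 2902 regions of 3 kb or more. Of these, the 6 kb had the third highest Th1 to Th2 ratio, and it was the highest of the 887 that were 5 to 7 kb long. Scaled by library totals, 8 of the 2902 (0.276%) were at least 2-fold higher in Th1. The ratios nearest to that limit were 2.08 inside and 1.9995 outside. The Th1 fold over input of 5.21 was above the median of 3.79 over these regions, with 556 regions above it. The Th2 fold of 1.99 was well below the median of 4.59, with 2864 regions above it. So the stretch was among the stronger Ezh2 regions in Th1 and near the bottom of the list in Th2. Because this call and the Th1 to Th2 ratio had picked out the stretch, its places in the list are a description and no more.

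Another 6 such regions lay within 500 kb of the window. Their Th1 to Th2 ratios of Ezh2 positions ran from 0.719 to 1.14. Their folds over input ran from 2.80 to 5.52 in Th1 and from 2.87 to 7.17 in Th2, and were higher in Th2 in 5 of the 6. Over all 2902 regions the median ratio was 0.853, and the median folds were 3.79 in Th1 and 4.59 in Th2. A lean toward Th2 was thus not particular to these 6. The nearest of the 6 before the window, at 88895001 to 88900000, held 68 Ezh2 positions in Th1 and 131 in Th2. The nearest after it, at 89000001 to 89005000, held 82 and 100. Of these 7 regions in all, the one at Mapk12 and Mapk11 had the highest ratio, 2.55, and the next was at 1.14. It had been selected on that ratio, so its place among the 7 is a description as well.

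The regions most like the 6 kb were sought by the log2 folds over input of Th1 Ezh2, Th2 Ezh2 and the Th1 control antibody. The nearest was chr2:113838001-113841000, with folds of 5.65 for Th1 Ezh2, 2.03 for Th2 Ezh2 and 1.28 for the control antibody. Next came chr9:43727001-43731000, with 4.40, 1.95 and 1.17, and chr2:172763001-172766000, with 5.28, 2.30 and 1.32. Their Ezh2 positions alone had Th1 to Th2 ratios of 1.20, 1.10 and 1.34. Their inputs held fewer positions in Th1 than in Th2, at 13 against 25, 20 against 34 and 24 against 34, where the 6 kb at Mapk12 and Mapk11 had 52 against 44. None of the 3 had a ratio of Ezh2 positions alone as high as that of the 6 kb, which had been selected on that ratio. Over input, Th1 Ezh2 stood above Th2 Ezh2 in all 3, as in the 6 kb. The folds of the nearest region, 5.65 and 2.03, were close to the 5.21 and 1.99 of the 6 kb. A higher Th1 fold over input was thus not particular to the 6 kb.

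A list of 24 genes of the p38 pathway (the kinases Mapk11 to Mapk14, their upstream kinases, phosphatases and targets) matched 24 entries of the gene table. None of the 24 was placed on mm9, so Ezh2 at the other genes of the pathway was not analysed here.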

How the data were processed

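The deposited values are read counts with no normalization, judged from whole numbers in files without a header. Each line of the authors' files held 1 interval, nearly always of 119 bp with no strand given, plus a count of the reads sharing it. The submitters' processing notes name CASAVA and the build mm9; alignment settings, filters and the step that gave intervals their length are not given in the sources used here. Per the labels' protocols, fragments of 170 to 250 bp went through 18 PCR cycles and 36 sequencing cycles.

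Each distinct interval was counted once, at its midpoint, in 1 kb bins, which limits the effect of PCR copies. Between 99.69% and 99.77% of the positions of the 5 libraries used lay on chromosomes 1 to 19 and X. Ratio and fold intervals are exact 95% Clopper-Pearson intervals, or conditional exact ones where 4 libraries enter. For bin calls, bins with at least 10 positions over both libraries were tested, and 0.5 was added to each count for the fold. Called bins were joined into regions across gaps of up to 1 bin. Tests of the control antibody and of the inputs were adjusted over 2 stretches each. The bin calls and the Clopper-Pearson intervals of ratios were also run on simulated counts, and the outcome is not given here. The intervals in which 4 libraries enter were not simulated. Python 3.11.15, NumPy 2.4.6, SciPy 1.17.1, pandas 2.3.3 and Matplotlib 3.10.9 were used.

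The genes, the stretch, the p38 list and the tests were chosen with earlier results of these data known. The rule for named items took both members, the genes next to them, every called bin and the bins with the most Ezh2 in each cell type, and the 3 most similar regions; the blocks of distance, the 200 bp steps, the parts of the 6 kb and the single bins singled out otherwise were chosen after seeing values. Alternatives were all reads, placement by the start, 2 other scalings, other backgrounds, moved edges and the rest without the bins next to the 6 kb. Equal depth, 2 kb bins, no minimum and stricter thresholds were used as well.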

Additional observations from a re-analysis of the deposited data

How the results depend on the processing

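Over 116 recomputed values, 106 stayed within the counting interval of the value reported, on the same side of the test's threshold or, for a count of bins, within 1.5 times of it. Not all of these are separate checks. Leaving the bins next to the 6 kb out of the rest cannot change a ratio or fold of the 6 kb. For the rest, it gives the same values as moving the edges out by 1 kb. No ratio or fold whose interval excluded 1 crossed to the other side of 1. The ratio of the inputs in the 6 kb, 0.976 with an interval around 1, was 1.26 with all deposited reads, 1.05 at equal depth and 1.02 with background scaling. The Th1 to Th2 ratio of Ezh2 in the 6 kb ran from 2.54 to 2.99 over 8 alternatives, and with the inputs from 2.32 to 3.35. The 8 include the change of the rest, which leaves both ratios of the 6 kb as they were. In the rest of the window the Ezh2 ratio ran from 1.56 to 1.98, and 1.98 came from scaling by the median ratio of regions of 3 kb or more. With background scaling, Ezh2 over input in Th1 was 7.57-fold in the 6 kb and 3.10-fold in the rest. In Th2 it was 2.86-fold in the 6 kb and 1.55-fold in the rest. Called bins numbered 6 in Th1 and 0 in Th2; they were 12 and 4 with all deposited reads and 16 and 4 with background scaling. With both inputs summed 10 were called in Th1, and at equal depth 1 was called in Th2. The cause of these moves was not tested. The adjusted p (exact binomial test) of the control antibody over input ran from 0.510 to 1 in the 6 kb. Single bins of the inputs held 2 to 19 positions, which limits their folds. For bin calls, placement by the start, background scaling, the other inputs and equal depth were added after seeing the data. No paired analysis was possible because there was only 1 library per group.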

Other observations

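Reads per position were not used to choose the stretch. In the 6 kb, they were 2.23 in the Th1 Ezh2 library and 1.77 in the Th2 Ezh2 library, against 2.24 and 2.04 over all chromosomes used. The inputs had 1.29 (Th1) and 1.36 (Th2) there, against 1.29 and 1.77, and the Th1 control antibody 1.44 against 1.66. The Th1 Ezh2 positions of the 6 kb thus had as many reads each as the library as a whole.

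In steps of 200 bp across the 6 kb, Th1 Ezh2 held a median of 6.5 positions and left 1 of 30 steps empty, and Th2 Ezh2 held a median of 3 and also left 1 empty. The Th1 input left 7 empty, the Th2 input 11 and the control antibody 8. The middle position of the Th1 Ezh2 library lay at 88969595 and that of the Th2 Ezh2 library at 88968930.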
